A study of Mus musculus with 2 samples.

Results

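The barrier endothelium of mouse sciatic nerve is described here from single-cell RNA counts. Its cells were those that the authors' cell table assigns to the class EC_BAR, matched to the 2 count matrices by library and barcode. A cell was left out when its barcode carried at least 5 times its UMIs (unique molecules counted) in the other library. That left 217 cells of the 2301 annotated ones, among 3641 barcodes in all, with 181 in the intact and 36 in the injured library. The authors built the class from the same RNA counts, so the genes that set it apart from other classes are given as a description.

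Both libraries came from adult mice in which Cdh5(PAC)-CreERT2, a tamoxifen-inducible Cre driven by an endothelial cadherin promoter, switches on the reporter R26-TomatoLSL. The intact library was made from uninjured sciatic nerves, and the injured library from the bridge, the tissue at the lesion, 7 days after injury. Nerves were pooled before digestion, and tdTomato-positive, CD45-negative cells were sorted in both conditions. Each condition was 1 pooled library, so no test was possible. The tissue site, the animals, the sort and the sequencing run cannot be told apart from injury. The 95% intervals below are exact and cover counting error only. The sort keeps cells that recombined the reporter, and the sources used here give neither the age in weeks nor the sex or number of the mice.

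Vessels inside a nerve form a blood-nerve barrier that resembles the blood-brain barrier. Tight junctions seal the cells to each other, transport through vesicles is kept low, and specific carriers bring in glucose, amino acids and lipids while pumps return drugs and waste to the blood. In the brain this state is held by Wnt/beta-catenin signalling, and loss of the barrier goes along with the appearance of PLVAP, the diaphragm protein of fenestrae and caveolae. After nerve injury the barrier opens, and new vessels cross the wound before axons do.

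Of the 83 injured cells that carried the EC_BAR label, 47 were left out because a far deeper cell with the same barcode stood in the intact library. They held a median of 770.0 UMIs, between 3.15% and 4.01% of their partners' UMIs. The partner was itself EC_BAR in 25 cases, EC_ART in 10, EC_VEN-PV- in 8, INTERMEDIATE in 1 and without a class in 3. None of the 36 injured cells kept shares a barcode with the intact library, while 25 of the 181 intact cells share one with a much shallower injured cell. The intact cells held 1361209 UMIs in all, with a median of 4682 per cell (range 619 to 40013), and the injured ones 354861, with a median of 7906 (1334 to 30418). Median mitochondrial shares were 4.53% and 4.26%. Xist, expressed from the inactive X chromosome, was at 323 and 612 CPM (a gene's UMIs scaled to a class total of 1e6) and Y-linked Ddx3y at 74.2 and 70.5 CPM. The part of the animals' sex in the values below was not tested.

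Markers of endothelium and of the barrier are given here for the labelled cells. They are no check of the label, since the class was built from the same counts. Cldn5, which encodes the main claudin of endothelial tight junctions, had a UMI in 181 of 181 intact and 34 of 36 injured cells. Cdh5, the endothelial cadherin, had one in 160 and 33 cells. Among barcodes with no class and non-endothelial markers, 8.96% of 424 intact and 4.78% of 272 injured ones held Cldn5, at median depths of 5786 and 10524 UMIs. Cdh5 was in 68.4% and 72.8% of these barcodes, at 268 and 227 CPM, against 744 and 989 CPM in EC_BAR. The presence of a Cdh5 UMI alone thus did not set the label apart, while its level was higher in EC_BAR. Of the 5 barrier markers Mfsd2a, Slco1a4, Slc2a1, Cldn5 and Spock2, 158 of 181 intact cells (87.3%) and 21 of 36 injured cells (58.3%) held at least 4. Drawn down to 2000 UMIs per cell, 59 of 145 intact and 0 of 35 injured cells held all 5, and in the injured cells Mfsd2a and Slco1a4 were each in 8 of 35 (22.9%). The barrier profile was thus weaker in the injured cells, and 3 of them held fewer than 2 markers. Without those 3, the ratios of 3 named genes turned (Fabp4, Cxcl9 and Cxcl10) and those of 9 others moved, among them Fabp5, Isg15 and Rsad2.

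The class was a far smaller part of the sorted endothelium after injury. EC_BAR made up 25.2% of the intact cells in the 9 endothelial classes (181 of 718, 95% interval 22.1 to 28.6%). In the injured library it made up 2.83% (36 of 1274, 1.99 to 3.89%), 8.92-fold less (6.21 to 13.1). With the 47 shallower cells kept, the injured share was 6.28%. Among cells with under 5% mitochondrial UMIs the intact share was 32.3% and the ratio of shares 0.0707, against 0.112 over all cells. These are shares of labels. The endothelial total also changed in make-up: EC_IMMAT, EC_PROLIF and EC_TIP held 4, 11 and 4 intact cells and 260, 162 and 100 injured ones. The injured library came from the bridge, not from the same tissue as the intact one. The genes behind the label were themselves lower after injury. Fewer barrier cells, barrier cells that lost the label, the other tissue and more cells of other classes cannot be told apart.

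The promoters of 4 genes on which the results below turn are printed here, 2 of barrier genes that were lower after injury and 2 of genes that were nearly silent in intact barrier cells and high after it. Each is the 250 bases before the RefSeq start of the gene in build GRCm38.p6, 5′ to 3′ on the gene's own strand. Mfsd2a lies at chr4:122961189-122961438 on the minus strand, Cldn5 at chr16:18776597-18776846 on the plus strand, Igfbp4 at chr11:99040994-99041243 on the plus strand and Lrg1 at chr17:56121947-56122196 on the minus strand. Capitals mark a match to 1 of 6 short motifs of factors known from endothelium.
Mfsd2a: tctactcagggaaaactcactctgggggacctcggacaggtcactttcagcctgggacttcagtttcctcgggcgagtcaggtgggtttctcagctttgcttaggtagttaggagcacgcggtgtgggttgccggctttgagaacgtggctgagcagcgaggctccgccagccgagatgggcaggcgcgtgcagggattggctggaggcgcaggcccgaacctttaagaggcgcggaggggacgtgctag
Cldn5: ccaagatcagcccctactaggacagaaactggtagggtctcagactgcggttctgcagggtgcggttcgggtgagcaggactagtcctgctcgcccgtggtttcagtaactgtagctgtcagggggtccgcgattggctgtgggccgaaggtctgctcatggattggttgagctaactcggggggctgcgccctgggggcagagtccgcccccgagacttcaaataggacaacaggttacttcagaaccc
Igfbp4: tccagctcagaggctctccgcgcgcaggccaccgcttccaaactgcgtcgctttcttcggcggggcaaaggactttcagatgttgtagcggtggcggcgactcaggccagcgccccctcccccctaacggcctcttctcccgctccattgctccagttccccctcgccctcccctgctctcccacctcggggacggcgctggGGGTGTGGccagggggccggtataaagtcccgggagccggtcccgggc
Lrg1: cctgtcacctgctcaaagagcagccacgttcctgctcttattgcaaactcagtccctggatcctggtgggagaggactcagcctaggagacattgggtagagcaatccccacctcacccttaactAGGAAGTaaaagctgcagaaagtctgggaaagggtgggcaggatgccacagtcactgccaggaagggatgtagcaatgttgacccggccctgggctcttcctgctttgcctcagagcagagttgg
Each motif was searched on both strands, and its share is given over the windows of 27025 genes. The TCF/LEF motif, the site of the Wnt effectors, was searched as CTTTGAT and was held by 3.23% of windows. The ETS motif was searched as AGGAAGT and was held by 7.8%. For the SOX factors the letters ACAATGG were used, held by 3.07%, and for the forkhead factors GTAAACA, held by 3.09%. The GATA motif AGATAAG was in 2.78% of windows. The KLF motif CCACACCC, read by the flow-induced factors, was in 3.19%. Igfbp4 held the KLF motif as GGGTGTGG, 48 bases before its start. Lrg1 held the ETS motif, 125 bases before its start. None of the 6 motifs was present in the same window of Mfsd2a, Cldn5, Slco1a4, Slc2a1 or Spock2. The share of G and C differed widely, at 61.6% in Mfsd2a, 59.6% in Cldn5, 69.2% in Igfbp4 and 55.2% in Lrg1.

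The intact barrier cells were set apart by carriers, by enzymes and by a few contractile and secreted products. Over all measured genes (10 CPM or more on average in the groups compared), 36 of 8166, or 0.441%, were at least 4-fold higher in EC_BAR than in the other 8 endothelial classes summed, and 135 (1.65%) at least 4-fold lower. Ratios were formed after adding 5 CPM to both values. Mfsd2a, the carrier of lysophospholipids that also holds down vesicle traffic in brain vessels, stood at 470.2 CPM in EC_BAR and 61 CPM in the others. Slco1a4, an organic anion carrier, stood at 1098 and 162 CPM. Slc2a1, the glucose carrier GLUT1, was at 1082 and 233 CPM. These are the carriers by which barrier endothelium is usually recognised.

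Amino acid and metal carriers stood beside them among the 20 genes with the highest ratios. Slc7a5, the light chain of the large neutral amino acid exchanger, was at 325 CPM against 50.6 in the others. The cationic amino acid carrier Slc7a1 was at 233 against 49 CPM, and the zinc carrier Slc39a10 at 357 against 100. Bsg, the chaperone of monocarboxylate carriers, was at 3571 against 1086 CPM. Enzymes of this group were Maoa, which degrades monoamines, at 599 against 132 CPM, and Glul, glutamine synthetase, at 1701 against 530.3. Ptn, the secreted growth factor pleiotrophin, was at 2285 against 579 CPM, Spock2, a secreted matrix proteoglycan, at 1874 against 365, and Plat, tissue plasminogen activator, at 319 against 83.6. Lcn2, Pglyrp1 and Rsad2, all known from innate defence, were at 470.2, 302 and 488 CPM against 85.2, 60.4 and 113. Prom1, Mal, Mt1 and Gpcpd1 completed the 20 with Acta2.

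Acta2, the smooth muscle actin, had the highest ratio of all, at 909 CPM against 87.1. In intact EC_VEN-PV-, 1 of those 8 summed classes, it stood at 473 CPM, so it was not particular to EC_BAR. Within EC_BAR Acta2 was carried by a part of the class: 82 of 181 cells had a UMI, and 160 of its 1237 UMIs lay in 1 cell. Among the 145 cells with at least 2000 UMIs, 72 held Acta2 and 73 did not. The 2 sets were close in barrier markers, with Mfsd2a at 438 and 499.9 CPM, Slco1a4 at 1096 and 1094 and Cldn5 at 4851 and 5193. Tagln, another smooth muscle gene, was at 635 CPM in the Acta2 cells and 257 in the others. Tpm1 was at 449 and 272 CPM, Myl9 at 86.2 and 57.4 and Notch3 at 9.73 and 3.38. The pericyte gene Rgs5 was at 70.9 and 74.3 CPM, Kcnj8 and Abcc9 were each at 6.95 and 6.75, and Pdgfrb, Cspg4, Des and Myh11 stood at no more than 5.07 CPM in either set. Acta2 also had a UMI in 136 of 424 intact barcodes (32.1%) that had no class and carried non-endothelial markers, at the median depth given above. The part of such RNA in the barrier cells' Acta2 was not tested.

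The genes lowest in intact EC_BAR were those of leaky and fatty acid-handling vessels. Plvap was at 16.2 CPM against 1272 in the other classes. The adhesion molecule of veins Selp was at 3.67 against 542 CPM, and the decoy chemokine receptor Ackr1 at 1.47 against 298. The fatty acid-binding proteins Fabp4 and Fabp5 were at 130 and 6.61 CPM against 8359 and 401, and the fatty acid receptor Cd36 at 25.7 against 990.2. Aqp1, the water channel, was at 27.2 against 1656 CPM, and Slco2a1, Lrg1 and Cytl1 were the remaining 3 of the 10 lowest.

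The label does not hold all cells with this profile. In the intact library 32 of 44 EC_VEN-PV- cells (72.7%), 20 of 91 EC_ART cells (22%) and 10 of 46 INTERMEDIATE cells (21.7%) held at least 4 of the 5 markers, against 1 of 213 EC_VEN-PV+ cells (0.469%) and 0 of 128 EC_CAP-PV- cells. The sources used here do not spell out "PV". Mfsd2a was at 470.2 CPM in EC_BAR, 112 in EC_VEN-PV- and 219 in EC_ART, and Cldn5 at 5057, 3504 and 4385 CPM. Slco1a4 was at 1098 CPM in EC_BAR, 768 in EC_VEN-PV- and 189 in EC_ART. Across 3076 genes (mean level of 50 CPM or more), the log2 profile of intact EC_BAR correlated at r = 0.954 with EC_VEN-PV-, 0.915 with EC_ART, 0.806 with EC_CAP-PV-, 0.784 with EC_VEN-PV+ and 0.778 with EC_CAP-PV+. These are correlations across genes of cells from 1 library, given as a description.

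**Figure D1:**
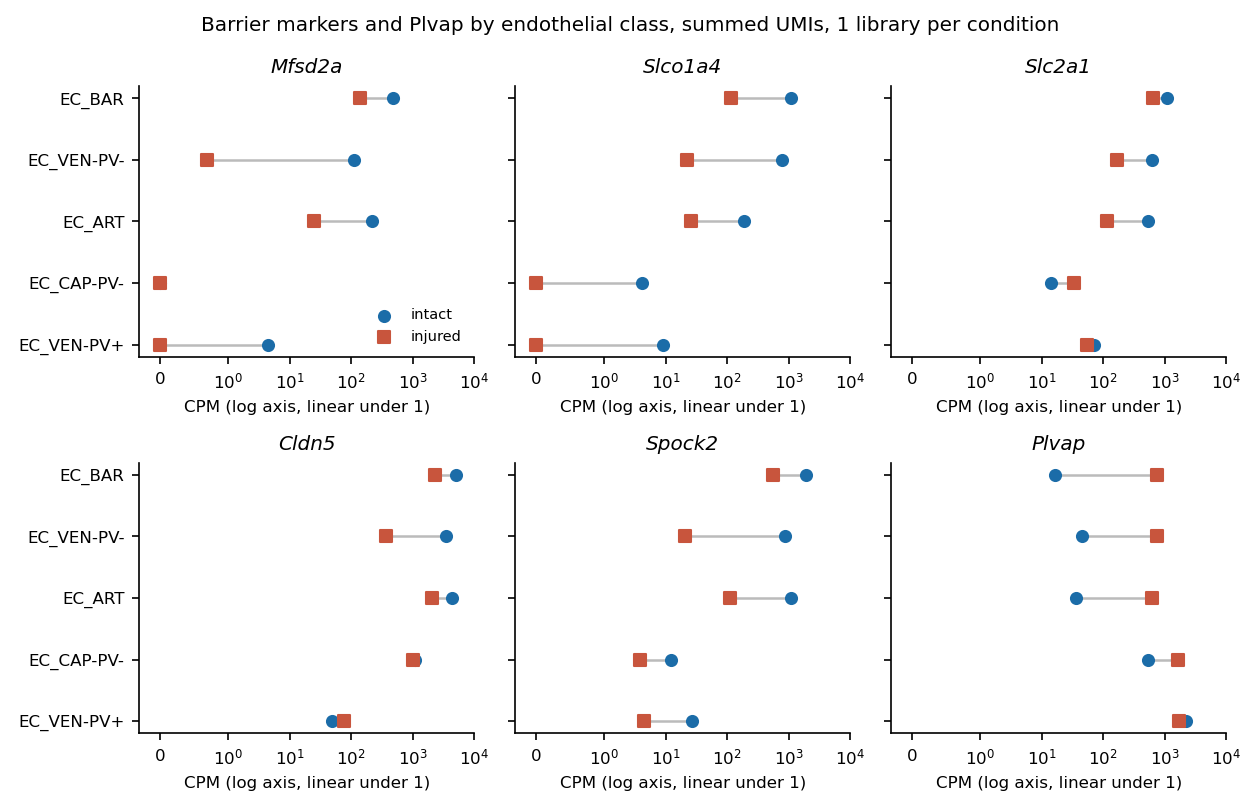
Levels of the 5 barrier markers and of Plvap (CPM of summed UMIs, log axis that is linear under 1) in EC_BAR and in the 4 other endothelial classes with at least 30 cells in both libraries, intact as circles and injured as squares. EC_BAR, EC_VEN-PV- and EC_ART lie apart from the other 2 classes for every marker in the intact library, and their Plvap moves from between 16.2 and 44.7 CPM to between 620.2 and 752 CPM.

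In the injured library the cells that carried the barrier label had less of every barrier marker. Mfsd2a was at 470.2 CPM before and 138 CPM after injury, 3.41-fold lower (2.54 to 4.65). Slco1a4 stood at 1098 and 116 CPM, 9.5-fold lower (6.97 to 13.3). Slc2a1 stood at 1082 and 639.7 CPM, 1.69-fold lower (1.47 to 1.95), the smallest fall of the 5. Its log2 ratio was -0.75 and ran from -3.16 to -0.49 over the ways of processing. Cldn5 stood at 5057 and 2288 CPM, 2.21-fold lower (2.05 to 2.38), and Spock2 at 1874 and 564 CPM, 3.33-fold lower (2.88 to 3.86). Thus 4 of the 5 were at least 2-fold lower, where 6.87% of all 7951 measured genes (546) were. A further 500 (6.29%) were at least 2-fold higher, and the median log2 ratio of all measured genes was 0.06. The markers are genes known to be high in intact EC_BAR, so all measured genes are not a like set for them. Of the 36 genes at least 4-fold higher in intact EC_BAR than in the other classes, 30 were at least 2-fold lower after injury and 0 higher (median -1.89). These 36 were picked for high intact values, which also enter the ratio. A fall was thus favoured in advance, and the count is a description only.

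The other classes that shared the markers held less of them still. In EC_VEN-PV- Mfsd2a went from 112 to 0.696 CPM and Spock2 from 865 to 20.9 CPM, and in EC_ART from 219 to 24.6 and from 1090.4 to 109 CPM. The median log2 ratio of the 5 markers was -1.72 in EC_BAR, -2.64 in EC_ART and -4.36 in EC_VEN-PV-. The label was given from the same RNA, so the EC_BAR values are those of cells that met it. Slc2a1 had a UMI in 28 of 36 injured barrier cells and in 160 of 362 injured EC_VEN-PV+ cells (44.2%), at median depths of 7906 and 10151.5 UMIs. Drawn down to 2000 UMIs per cell, the counts were 19 of 35 (54.3%) and 40 of 359 (11.1%). Slc2a1 was also abundant in the barcodes with no class and non-endothelial markers, in 88.4% of intact ones at 1099 CPM and in 64.7% of injured ones at 325 CPM, and the part of RNA from such cells was not tested. Of those barcodes, 0.708% of intact and 0.368% of injured ones held Mfsd2a.

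In both lists of transporters more genes were at least 2-fold lower than higher. Of 34 nutrient carriers, 22 were measured, 8 were at least 2-fold lower and 1 was higher (median -0.78). Slc7a5 was nearly lost, with 443 UMIs in 119 cells in the intact and 4 UMIs in 3 cells in the injured library, or 325 and 11.3 CPM, 28.9-fold lower (11.2 to 106). Its partner, the heavy chain Slc3a2, stood at 985 and 439.6 CPM, 2.24-fold lower (1.9 to 2.66). Slc16a4, a monocarboxylate carrier, stood at 188 and 25.4 CPM, and Slc7a1 at 233 and 59.2 CPM. The thiamine carrier Slc19a3 went from 32.3 to 2.82 CPM, from 44 UMIs to 1. The 1 that was higher, the ion cotransporter Slc12a2, stood at 8.82 and 42.3 CPM. In the other classes summed 9 of these 22 carriers were lower and 1 higher (median -0.65). In EC_VEN-PV- 22 were measured, with 12 lower and 2 higher (median -1.12). For this and every list below, the shares over all measured genes were 6.87% at least 2-fold lower and 6.29% higher.

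The 2 main efflux pumps were lower by less than Slco1a4. Abcb1a, which encodes P-glycoprotein, stood at 1240.1 and 476 CPM, 2.6-fold lower (2.22 to 3.07). Abcg2, the breast cancer resistance protein, stood at 1159 and 426 CPM, 2.72-fold lower (2.3 to 3.24). Slco1c1, the thyroid hormone carrier, had 70 UMIs in the intact and 1 in the injured library. Of 18 genes in this list 11 were measured, 4 were at least 2-fold lower and 2 higher, and the median was 0.17, with the remaining pumps under 2-fold, such as Abcc4 at 38.2 and 50.7 CPM. The 2 higher ones were the pump Abcb1b, at 11.8 and 33.8 CPM, and the prostaglandin carrier Slco2a1, at 2.94 and 59.2 CPM, 20.1-fold higher (6.79 to 80.7). In the other classes summed 4 of the 11 were lower and 0 higher (median -0.70).

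Junction genes other than Cldn5 largely kept their level. Of 24 genes in the list 19 were measured, 3 were at least 2-fold lower and 0 higher (median -0.14). Those lower included Cldn5 and the adhesion molecule Jam3, from 40 and 4 UMIs. Tjp1, the scaffold ZO-1, stood at 565 and 445 CPM, and Cgnl1, a cytoskeletal linker of tight junctions, at 123 and 95.8. Lsr, the receptor of tricellular junctions, stood at 163 and 121 CPM. The adherens junction genes Cdh5 and Pecam1 were at 744 and 989 CPM and at 629 and 859 CPM, and Ocln, which encodes occludin, had only 13 and 4 UMIs. In the other classes summed 4 of the 19 were lower and 0 higher (median -0.41).

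Plvap moved against the markers after injury. It had 22 UMIs in 19 of 181 intact cells and 262 UMIs in 31 of 36 injured cells, or 16.2 CPM (10.1 to 24.5) and 738 CPM (652 to 833), 45.7-fold higher (29.5 to 74.2). Its level in injured EC_BAR was 57.2% of that in the other classes, against 1.27% in the intact library. The other classes summed differ in make-up between the libraries. EC_IMMAT, EC_PROLIF and EC_TIP held 4, 11 and 4 intact cells and 260, 162 and 100 injured ones. Every comparison with the summed classes across libraries, here and below, also holds this change of make-up, and its part was not tested. Of 8 further genes that were low in intact barrier cells, the venous genes Selp and Ackr1 stood at 3.19% and 2.45% of their injured level in the other classes, Bgn at 3.48%, Fabp4 at 11.4% and Cd36 at 24.7%. Lrg1 stood at 107%, Aqp1 at 162% and Igfbp4 at 286%. Plvap had a UMI in 11.8% of the 272 injured barcodes with no class and non-endothelial markers. Some caveolar genes went the other way by less than 2-fold, with Cav1 at 987 and 814 CPM, Cav2 at 424 and 223 and Cavin2 at 637 and 338. Others were slightly higher, with log2 ratios of 0.58 for Ehd4, 0.31 for Pacsin2 and 0.13 for Ehd2. The log2 ratio of Cav1 was -0.28 and ran from -0.47 to 0.86 over the ways of processing. In this list of 17 genes, 13 were measured, and Fcgrt, the neonatal Fc receptor, was the 1 at least 2-fold lower, at 148 and 50.7 CPM.

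Most injured cells held both Plvap and several barrier markers. Of the 36 injured cells 25 (69.4%) held at least 3 of the 5 markers and Plvap as well, against 19 of 181 intact cells (10.5%). Drawn down to 2000 UMIs per cell these were 10 of 35 (28.6%) and 3 of 145 (2.07%). The summed level of the 5 markers had a median of 10258 CPM in intact cells (range 1216 to 23392) and 3595 CPM in injured cells (0 to 10493). The ranges overlapped, and the highest injured cell lay close to the intact median. Plvap per cell had a median of 0 CPM in intact cells, with a highest value of 532, and a median of 613 CPM in injured cells, with a highest value of 2422. Across the 36 injured cells, which share 1 library, marker sum and Plvap correlated at Pearson r = -0.43, and the 3 cells with fewer than 2 markers all held Plvap. No doublet caller was run here, and the part of doublets in the cells with both was not tested.

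**Figure D2:**
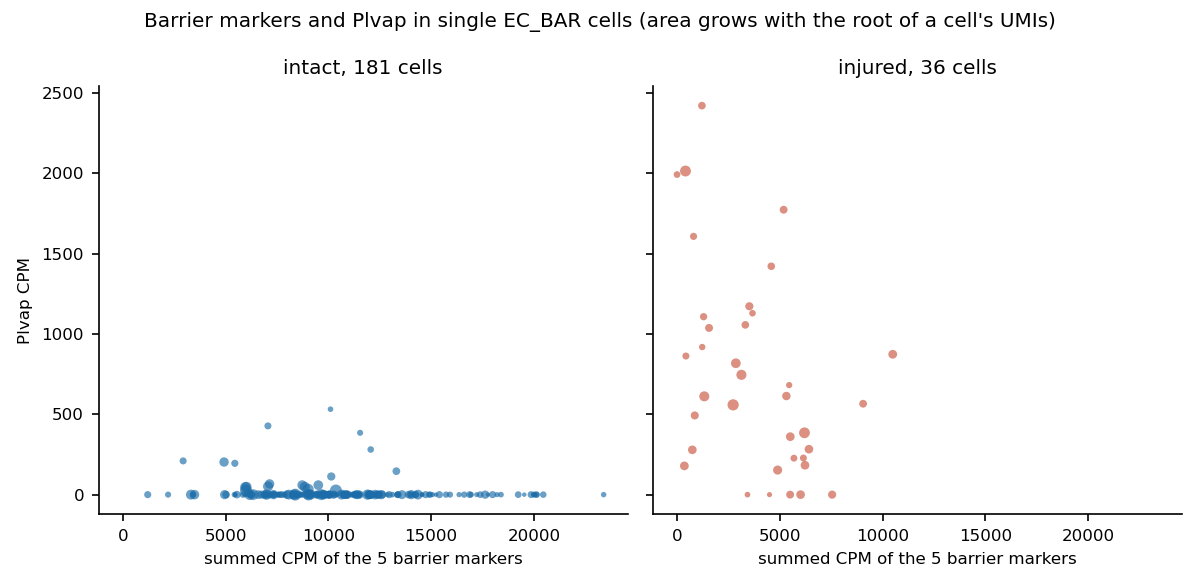
Plvap (CPM, vertical) against the summed CPM of the 5 barrier markers (horizontal) in each EC_BAR cell, intact on the left and injured on the right, with larger points for cells with more UMIs. Intact cells lie along the bottom with at most 532 CPM of Plvap, and injured cells spread upward to 2422 CPM while their marker sum ends at 10493 CPM.

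Wnt pathway genes, which mark the barrier state, were lower among the targets named here and less so among the receptors. Of 28 genes in the list 20 were measured, 6 were at least 2-fold lower and 0 higher (median -0.53). In the other classes summed 6 of these 20 were lower and 1 higher (median -0.66), so the change was not particular to EC_BAR. Axin2, a direct target and feedback inhibitor of the pathway, stood at 106 and 22.5 CPM, 4.69-fold lower (2.32 to 11.1). Nkd1, another feedback inhibitor, stood at 115 and 14.1 CPM, 8.19-fold lower (3.43 to 25.6), and Tnfrsf19, a target of the pathway, at 97 and 11.3 CPM, 8.6-fold lower (3.28 to 32). Foxq1, a forkhead factor of barrier endothelium, stood at 143 and 16.9 CPM, 8.47-fold lower (3.82 to 23.4). The nuclear effectors Lef1 and Tcf7 stood at 199 and 101 CPM and at 83.7 and 36.6 CPM. The receptor Fzd4 stood at 167 and 121 CPM and its co-receptor Lrp6 at 72 and 56.4, while Lrp5 went from 61 to 25.4 CPM.

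Even so, within the injured library Lef1 was 10.5-fold and Axin2 10.8-fold higher in EC_BAR than in the other classes summed, against 3.66-fold and 5.9-fold in the intact library. This fold is a ratio of CPM with nothing added. The others' summed levels were themselves lower after injury, with a different make-up of classes. In the injured library 49 of 8084 measured genes (0.606%) were at least 4-fold higher in EC_BAR, and 13 genes were on both lists, 36.1% of the intact list and 26.5% of the injured one. The 10 highest in injured EC_BAR were Scgb3a1, Spock2, Mal, Slc2a1, Rsad2, Pcp4l1, Ptn, Pltp, Ccnd2 and Glul. Mal, a membrane proteolipid known from myelin, stood at 1383 and 1172 CPM in EC_BAR and at 305 and 70 CPM in the other classes. Glul stood at 1701 and 1533 CPM in EC_BAR and 530.3 and 272 in the others. Neither was 2-fold lower in EC_BAR.

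The genes with the largest ratios after injury were led by secreted factors. Igfbp4, a secreted binding protein of insulin-like growth factors, had 43 UMIs in the intact and 592 in the injured cells, or 31.6 and 1668 CPM, 52.8-fold higher (38.7 to 73.8). It was in 34 of 36 injured cells, and its level was above that of the other injured classes, at 583 CPM. Barcodes with no class and non-endothelial markers held Igfbp4 at 599 CPM in the intact and 1169 CPM in the injured library, and the part of RNA from such cells was not tested. Lrg1, a secreted glycoprotein that modulates TGF-beta signalling in vessels, stood at 29.4 and 1237 CPM, 42.1-fold higher (30.4 to 59.7), with a UMI in 33 of 36 injured cells. In the other classes it stood at 933 and 1153 CPM.

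Aqp1 stood at 27.2 and 1006 CPM in EC_BAR, 37-fold higher (26.3 to 53.4), but 148 of its 357 injured UMIs lay in 1 of the 24 cells that held it. Gja4, the gap junction protein connexin 37 of arteries, stood at 14.7 and 273 CPM, 18.6-fold higher (11.4 to 31.8), in 19 of 36 injured cells. Stmn2, a microtubule regulator, went from 2 to 73 UMIs, and Pdlim1, an actin-associated adaptor, from 11 to 105. Lamb1, a laminin chain, went from 2 to 37 UMIs, Cd63, a tetraspanin of endosomes, from 9 to 61, and the peptide gene Grp from 3 to 40. Mest, an imprinted gene, went from 7 to 65 UMIs, of which 36 lay in 1 cell. Scgb3a1, a secreted secretoglobin, went from 17 to 151 UMIs in 12 cells, 51 of them in 1 cell, and stood at 10.2 CPM in the other injured classes against 426 in EC_BAR.

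**Figure D3:**
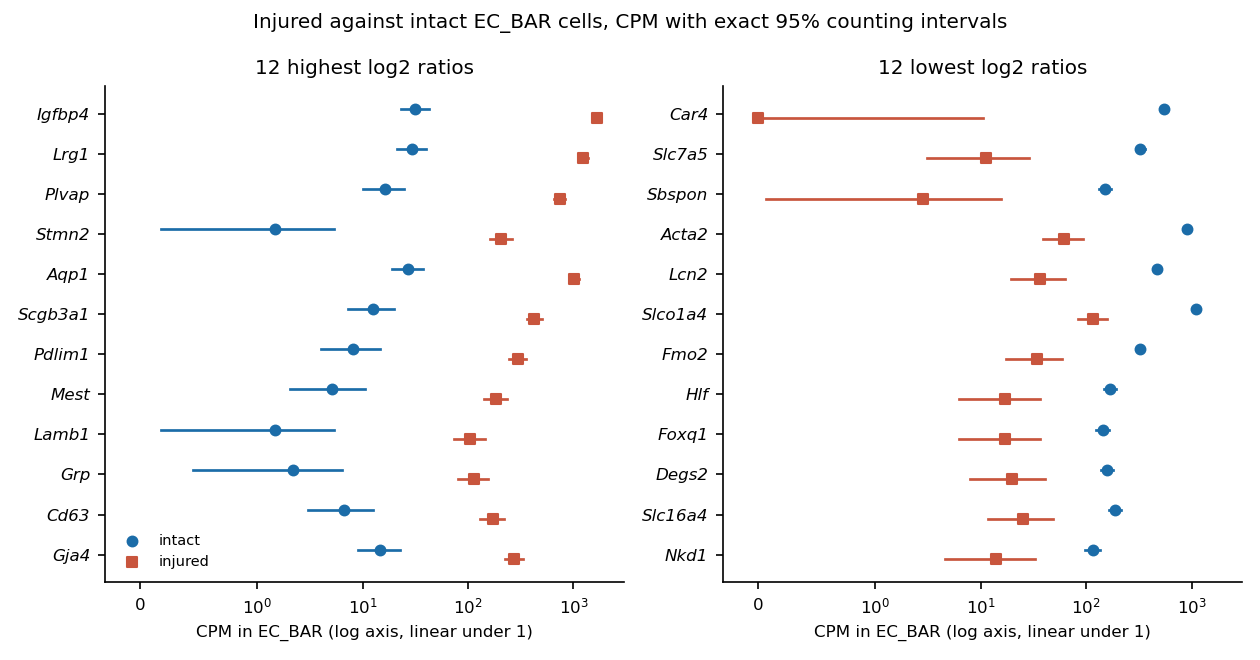
CPM in intact (circles) and injured (squares) EC_BAR of the 12 genes with the highest and the 12 with the lowest log2 ratio of injured over intact, on a log axis that is linear under 1, with exact 95% counting intervals. Intact and injured intervals do not overlap for any of the 24, Igfbp4 lies at 31.6 and 1668 CPM, and Car4 lies at 543 and 0 CPM.

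The 12 lowest ratios belonged to genes of varied function. Car4, a membrane-bound carbonic anhydrase of capillary endothelium, had 739 UMIs in 101 intact cells and 0 UMIs in the injured cells, at least 64.2-fold lower when 3 counts over the group are taken as the limit. Sbspon, a secreted matrix protein, went from 206 UMIs to 1. Acta2 stood at 909 and 62 CPM, 14.7-fold lower (9.64 to 23.5), with 17 of its 22 injured UMIs in 1 cell. Lcn2 stood at 470.2 and 36.6 CPM, 12.8-fold lower (7.45 to 24.2). Hlf, a transcription factor of the circadian output, stood at 169.7 and 16.9 CPM, and Degs2, a sphingolipid desaturase, at 157 and 19.7. Fmo2, a flavin-containing monooxygenase, stood at 323 and 33.8 CPM. The remaining members of the 12 were Slc7a5, Slco1a4, Foxq1, Slc16a4 and Nkd1, given above.

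Among the 28 lists of pathways and vessel types, detoxifying and luminal enzymes had the lowest median, -1.78, with 9 of 13 measured genes at least 2-fold lower and 2 higher, of 26 listed. Besides Car4 and Fmo2 they included the glutathione transferase Gstm1, at 169.7 and 31 CPM, and the sulfotransferase Sult1a1, at 129 and 33.8. Maoa stood at 599 and 285 CPM. The higher ones were Enpp2, which makes lysophosphatidic acid, at 8.82 and 87.4 CPM, and Cyp26b1, which degrades retinoic acid, at 7.35 and 39.5. The same list had a median of -1.80 in the other classes summed.

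Basement membrane genes were the list with the most higher members, 11 of 24 at least 2-fold higher and 1 lower (median 0.78), where 6.29% of all measured genes were higher. The collagen IV chains Col4a1 and Col4a2 stood at 332 and 1220.2 CPM and at 209 and 843 CPM. Barcodes with no class and non-endothelial markers held Col4a1 at 661 CPM in the intact and 1369 CPM in the injured library. The part of RNA from such cells was not tested. Nid1, which links collagen to laminin, stood at 12.5 and 121 CPM, Hspg2, which encodes perlecan, at 119.7 and 287, and the endostatin collagen Col18a1 at 110.2 and 471. Col15a1 stood at 17.6 and 211 CPM, with 57 of its 75 injured UMIs in 1 cell. The lower one was Spock2. In the other classes summed the median was 0.67.

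Genes of sprouting were split. Of 24 tip cell genes 19 were measured, 7 were at least 2-fold higher and 3 lower (median 0.31), against a median of 0.84 in the other classes. The higher ones included Mmp14, a membrane-bound matrix protease, at 5.88 and 76.1 CPM, and Marcksl1, a regulator of the actin cortex, at 5.88 and 113 CPM. The lower ones were 3 well-known tip cell products: the ligand Apln at 47 and 5.64 CPM, the TIE2 ligand Angpt2 at 30.9 and 2.82, and the proteoglycan Esm1 at 38.2 and 11.3. In the other classes their log2 ratios were 1.69, 1.45 and 0.36. The injured EC_BAR levels of Apln and Angpt2 lay under 8.45 CPM, the level of 3 counts. Over the ways of processing the EC_BAR log2 ratio ran from -2.86 to 2.48 for Apln and from -3.06 to 0.00 for Angpt2. For Esm1 it ran from -2.98 to -0.90. Of 21 mitosis genes 3 were measured, and Top2a, the topoisomerase of dividing cells, went from 2 to 16 UMIs in the barrier cells.

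Some identity genes of arteries, capillaries and veins were higher. Of 22 arterial genes 18 were measured, 5 were at least 2-fold higher and 4 lower (median -0.06), of 16 capillary genes 13, with 6 and 1 (median 0.91), and of 18 venous genes 14, with 6 and 1 (median 0.45). Mgp, an inhibitor of calcification and BMP signalling that is high in arteries, stood at 420.2 and 1361 CPM. In barcodes with no class and non-endothelial markers Mgp was at 804 and 3094 CPM, and the part of RNA from such cells was not tested. Cxcl12, an arterial chemokine, stood at 3025 and 874 CPM in EC_BAR. Tmem252 stood at 66.9 and 490.3 CPM and the apelin receptor Aplnr at 12.5 and 98.6. Fabp4 stood at 130 and 417 CPM, but 94 of its 148 injured UMIs lay in 1 cell, and without the 3 injured cells that held fewer than 2 barrier markers its log2 ratio was -0.19 in place of 1.64. Cxcl10, an interferon-induced chemokine, likewise went from 4.22 to -0.54 without them. By profile, injured EC_BAR correlated across the same 3076 genes at r = 0.926 with injured EC_ART, 0.893 with injured EC_VEN-PV-, 0.877 with injured EC_CAP-PV- and 0.863 with intact EC_BAR.

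Flow response, interferon-stimulated, immediate early and clock genes each held more lower than higher members. Of 14 flow response genes 12 were measured, 4 were at least 2-fold lower and 1 higher (median -0.55). The flow-induced factors Klf2 and Klf4 stood at 3519 and 1271 CPM and at 1613 and 626 CPM, and the nitric oxide synthase Nos3, also induced by flow, at 31.6 and 90.2. Of 24 interferon-stimulated genes 23 were measured, and 8 were at least 2-fold lower and 0 higher (median -0.84), with Iigp1 at 944 and 248 CPM and Isg15 at 800 and 242. The interferon median was -1.20 without the 3 injured cells with fewer than 2 barrier markers, and 0.36 in the 30 intact and 7 injured cells with fewer than 3 UMIs of other cell types' markers. All 24 immediate early genes were measured, with 7 lower and 1 higher (median -0.76). These genes, among them Fos at 5079 and 2353 CPM and Egr1 at 2013 and 778, are also known to respond to digestion of tissue at 37 degrees C, and the part of this was not tested. Of 13 measured clock genes 4 were lower and 0 higher (median -0.81). The other classes summed had medians of -1.04, -1.11 and -1.03 for the first 3 of these lists.

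Lipid genes changed in both directions, with 7 of 18 measured genes at least 2-fold higher and 5 lower (median 0.42). Abca1, the cholesterol exporter, stood at 34.5 and 431 CPM and the desaturase Scd2 at 44.1 and 239.5. The cholesterol synthesis gene Hmgcs1 went from 49 UMIs to 1, Pltp, the phospholipid transfer protein, from 1305 to 380.4 CPM, and Apoe from 673 to 273. Among secreted factors, Ptn stood at 2285 and 403 CPM, 5.67-fold lower (4.79 to 6.75), Gas6, a ligand of TAM receptors, at 296 and 84.5, and endothelin-1 (Edn1) at 558 and 183. Rspo3, an enhancer of Wnt signalling, went from 65 UMIs to 1. Bmp2, a bone morphogenetic protein, had 0 UMIs in the intact and 32 in the injured cells, at least 40.9-fold higher, with 18 of them in 1 cell, and Bmp6 had 38 and 0 UMIs.

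**Figure D4:**
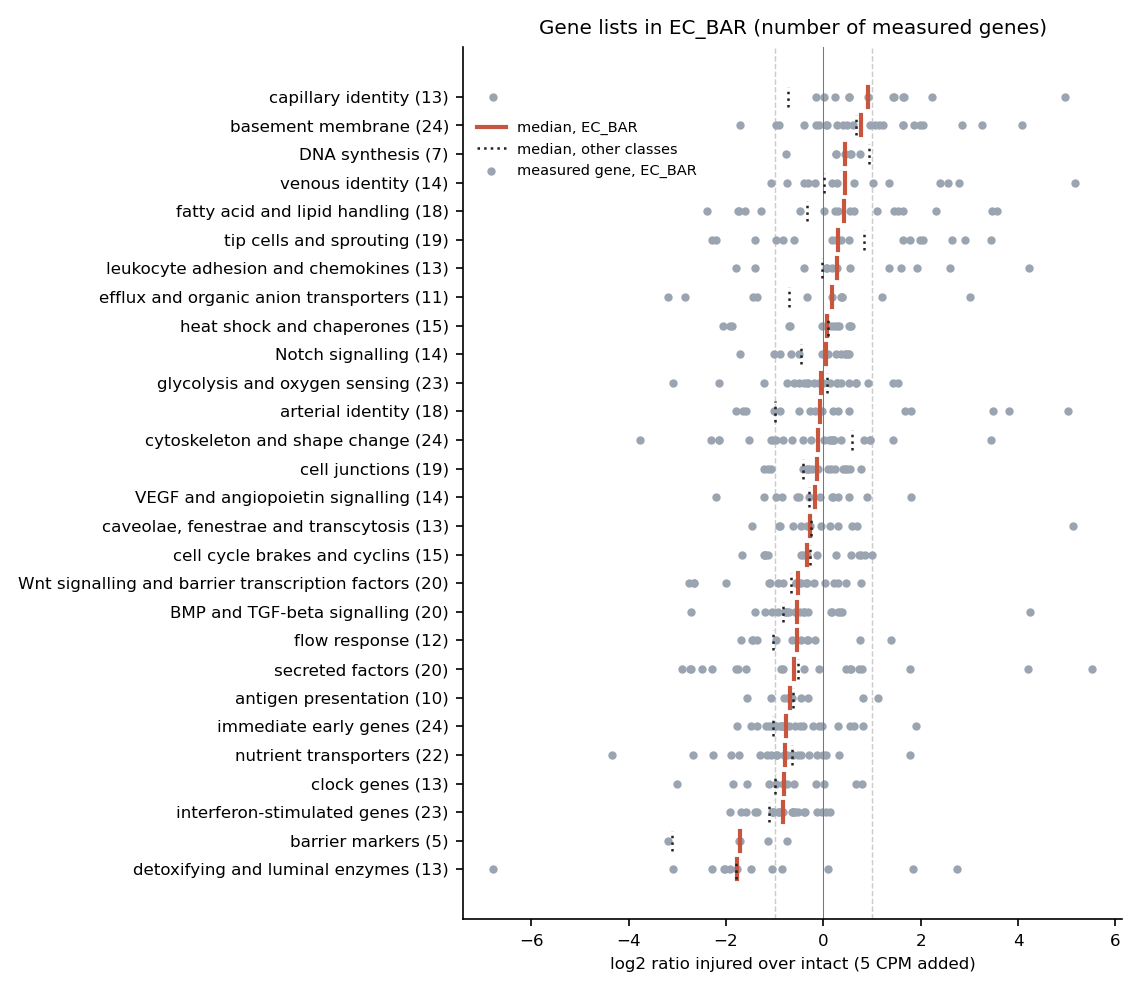
Log2 ratios of injured over intact (5 CPM added) of the measured genes of each list in EC_BAR (points), with the list's median in EC_BAR (solid bar) and in the other endothelial classes summed (dotted bar). Lists are ordered by their EC_BAR median, from -1.78 for detoxifying and luminal enzymes to 0.91 for capillary identity, and dashed lines mark 2-fold.

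Some cytoskeletal genes were lower in EC_BAR and higher in the other classes. Of 24 measured cytoskeletal genes 7 were at least 2-fold lower and 2 higher (median -0.12), against a median of 0.59 in the other classes. The EC_BAR median was 0.11 from means of per-cell CPM, 0.09 after thinning to 2000 UMIs and 0.65 in the 30 and 7 cells with few UMIs of other cell types' markers. In EC_VEN-PV- the list had 3 higher and 4 lower members (median 0.11), and Acta2 went from 473 to 4.87 CPM. Tpm1, a tropomyosin, stood at 372 and 127 CPM in EC_BAR and 173 and 270.5 CPM in the other classes. Myl9, a myosin light chain, went from 102 to 4 UMIs, and Cnn2, a calponin, stood at 123 and 56.4 CPM in EC_BAR and at 64.1 and 119 in the others. The intermediate filament Nes stood at 128 and 36.6 CPM against 68.2 and 80.1, and Vim, the main intermediate filament of these cells, at 1971 and 5287 CPM in EC_BAR. Of 12 pericyte and smooth muscle markers 3 were measured in EC_BAR, Acta2, Tagln and Rgs5, and all 3 were lower, with Rgs5 going from 95 UMIs to 1. The 12 summed to 1467 CPM in intact and 169 in injured barrier cells, mostly from Acta2 and Tagln, against 902 and 222 CPM in the other classes. In the injured cells 7 of the 12 were at 0, Pdgfrb, Cspg4, Kcnj8, Abcc9, Higd1b, Des and Myh11, and in the intact cells each of these 7 had at most 9 UMIs. The part of RNA from mural cells in these values was not tested. Of the remaining cell types, 12 fibroblast markers summed to 68.3 and 53.5 CPM, 12 myeloid ones to 11.8 and 16.9, with Lyz2 and Ptprc at 0 in both libraries, and 12 lymphoid ones to 25 and 2.82, all of it Cd79a. The 12 Schwann cell markers summed to 1452 and 1246 CPM mostly through Mal, with Mbp and Sox10 at 0 in both libraries. The 12 perineurial markers summed to 1315 and 747 CPM, against 426 and 143 in the other classes, mostly through Slc2a1, which is also a barrier marker, and Sbspon. The perineurial markers Crb2 and Lgals7 were at 0 in both libraries, and the part of RNA from perineurial cells was not tested.

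The genes whose ratio in EC_BAR lay furthest above that in the other classes were Aqp1, Stmn2, Plvap, Lrg1, Igfbp4, Scgb3a1, Gja4 and Pdlim1. In the other classes of the intact nerve Plvap, Lrg1 and Aqp1 already stood at 1272, 933 and 1656 CPM. Furthest below were Acta2, Car4, Mt2, Slc7a5, Sbspon, Tpm1, Cnn2 and Nes. Of these, Mt2, a metallothionein, stood at 148 and 28.2 CPM in EC_BAR and 41.2 and 50.7 CPM in the other classes. With 1 library per condition the difference between EC_BAR and the other classes was not tested for any gene. It also holds the change in make-up of the summed classes. In EC_VEN-PV-, the class most like it, several went the same way: Plvap stood at 44.7 and 752 CPM, Aqp1 at 71.1 and 1676, Lrg1 at 187 and 2350.4, and Car4 at 955 and 8.36.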

How the data were processed

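Single-cell RNA counts of 1 intact and 1 injured library were used. The matrices deposited by the authors hold UMI counts per gene and barcode with no normalization, made with Cell Ranger 3.0.2 per the file headers. Seurat 4.0.1, Cell Ranger 6.1.2 and the genome builds GRCm38 and mm10 are further named, per the submitters' processing notes. The sources used here do not say how the authors filtered cells, treated doublets or named classes.

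The UMIs of a class were added up and scaled to CPM, with exact Poisson intervals, exact conditional binomial intervals for ratios and Clopper-Pearson intervals for shares. Log2 ratios had 5 CPM added. A gene counted as measured from a mean of 10 CPM, and as called at 2-fold between libraries or 4-fold between classes. A count of 0 was set to 3 counts over the group for a bound. Non-endothelial barcodes had no class, at least 10 UMIs of other cells' markers, at least 1000 UMIs and under 20% mitochondrial UMIs. The scripts were tested on simulated counts, and ran on Python 3.11.15, numpy 2.4.6, scipy 1.17.1 and pandas 2.3.3.

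The members and the gene lists were chosen with earlier results of these data known. Named genes were the 5 markers, the 20 highest and 10 lowest ratios over other classes in intact cells and the 10 highest in injured ones (200 CPM or more), the 12 highest and 12 lowest ratios after injury and the 8 furthest above and below the other classes (100 CPM, 30 UMIs and 10 cells or more), and up to 3 in each direction per list. Other names were chosen after their values were seen, among them junction, Wnt and caveolar genes named for their role. Promoters were read from RefSeq on GRCm38.p6. For 4 of the 7 genes examined the bases after the start matched a transcript of the GENCODE annotation as given, and for 0 on the opposite strand. Slco1a4, Spock2 and Lrg1 had no match. In GENCODE the minus-strand gene Lrg1 begins at position 56122001, inside the window printed for it, so part of that window lies within the gene as annotated there. Some genes of the lists are not reported here by name.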

Additional observations from a re-analysis of the deposited data

Results flagged for a closer look

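For 4 genes the ratio of injured over intact was at least 2-fold higher in EC_BAR and at least 2-fold lower in the other endothelial classes summed, among genes with 100 CPM, 30 UMIs and 10 cells or more in the higher EC_BAR library. Cd36, with log2 ratios of 1.45 and -1.62, was below those limits. None of these differences was tested, since each condition was 1 library. The summed classes also differed in make-up, with EC_IMMAT, EC_PROLIF and EC_TIP at 4, 11 and 4 intact and 260, 162 and 100 injured cells. For Aqp1, the water channel, the log2 ratios were 4.97 in EC_BAR and -1.41 in the others, a difference of 6.38. For Mgp, the matrix Gla protein, they were 1.68 and -1.39, a difference of 3.07. Non-endothelial barcodes held Mgp at 804 and 3094 CPM. For Fabp4, a fatty acid-binding protein, they were 1.64 and -1.20, a difference of 2.84, but without 3 injured cells that held fewer than 2 barrier markers the EC_BAR value of Fabp4 was -0.19. For Lmcd1, a LIM domain cofactor, they were 1.24 and -1.28, a difference of 2.52.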

How the results depend on the processing

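Up to 18 other ways of processing were run, 2 of them chosen after seeing the data. The 5 barrier markers were lower and Plvap, Igfbp4, Lrg1, Aqp1 and Gja4 higher after injury in all 14 that gave values per gene. With the shallower cells kept, the injured share was 6.28% and the ratio of shares 0.284, and with under 5% mitochondrial UMIs the intact share was 32.3% and the ratio 0.0707. The counts of genes depended on the filters far more. Main counts were 500 higher and 546 lower after injury and 36 and 49 genes enriched in intact and injured EC_BAR. Thinning cells to 2000 UMIs gave 1229, 1223, 76 and 138, and 20 CPM added gave 168, 246, 13 and 24. With no minimum CPM 832 were higher and 999 lower, and at a mean of 50 CPM 152 and 196, with 28 enriched in injured cells, against 86 with 1 CPM added. The intact enriched genes numbered 66 without barcodes found in both libraries, 23 with under 5% mitochondrial UMIs and 73 from means of per-cell CPM. Leaving out cells with 3 UMIs of other cell types' markers kept 30 intact and 7 injured cells, since Acta2, Tagln and Mal are among those markers, and gave 2594, 1732, 233 and 363. With these 3 genes not counted, 141 and 26 cells were kept and 74 genes were enriched in injured cells.

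Of log2 ratios, thinning turned Cd36 (-0.67), Rbpj (0.41) and Vegfa (0.20). In the 30 and 7 cells, Ankrd37, Cks2, Hlx and the mitosis median came to -2.27, Apln and Tfrc to 2.48, Cnn2 to 0.26, Isg15 to 0.36, Jam3 and Hspa1a to 0.24, Gadd45a, Slc39a8 and Vegfa to 0.22 and Nes to 0.00. With the 3 genes not counted Selp came to -0.18. Without the 3 injured cells holding fewer than 2 barrier markers Cxcl10 came to -0.54, Cxcl9 to -0.37 and Fabp4 to -0.19, and 9 other genes and 2 list medians moved, with Isg15 at -2.66, Rsad2 at -1.59, Fabp5 at 2.18, the interferon median at -1.20 and the capillary median at 0.53. List medians nearer 0 also turned: in the 30 and 7 cells the interferon median was 0.36, the cytoskeletal one 0.65 and the arterial one 0.24, and with the 3 genes not counted the venous median was -0.09, the lipid one -0.04 and the efflux one -0.18. The cause was not tested.

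With 354861 injured UMIs, 3 counts correspond to 8.45 CPM in injured EC_BAR, against 2.2 CPM in intact EC_BAR, so losses of low genes were poorly measured. No paired analysis was possible because each condition was 1 library, and no library could be left out.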

Other observations

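Several gene groups in the barrier cells are given here as values. Of 20 measured BMP and TGF-beta genes 4 were at least 2-fold lower after injury and 1 higher (median -0.54), with Id1, a target of BMP signalling, at 1001 and 482 CPM. Of 14 measured Notch genes 2 were lower and 0 higher (median 0.06), and the target Hes1 stood at 598 and 178 CPM. Of 14 measured VEGF and angiopoietin genes 2 were lower and 1 higher (median -0.17). Of 23 measured glycolysis and oxygen-sensing genes 3 were lower and 2 higher (median -0.05). Pfkfb3, an activator of glycolysis, stood at 142 and 28.2 CPM, and Pgk1, a glycolytic enzyme, at 66.1 and 200.1. Of 15 measured cyclins and cell cycle brakes 5 were lower and 1 higher (median -0.33), with Gadd45g, a growth arrest gene, at 633 and 194 CPM.

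Of 13 measured adhesion molecules and chemokines 5 were higher and 2 lower (median 0.27). The neutrophil chemokine Cxcl1 stood at 8.82 and 78.9 CPM, with 23 of its 28 injured UMIs in 1 cell, and Cx3cl1, the membrane-bound chemokine fractalkine, at 106 and 36.6 CPM. Of 10 measured antigen presentation genes 2 were lower and 1 higher (median -0.69), with the class I gene H2-T23 at 395 and 129.6 CPM. Of 15 measured chaperones 3 were lower and 0 higher (median 0.08), with the small heat shock protein Hspb1 at 1729 and 457 CPM. Outside the class, 17 of 144 injured EC_ART cells (11.8%) and 4 of 121 injured EC_VEN-PV- cells (3.31%) held at least 4 of the 5 barrier markers.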
